A study of Mus musculus with 12 samples.

Results

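Cish, Socs1, Socs2 and Socs3, inhibitors of cytokine signalling that STAT5 can induce, the serine/threonine kinase gene Pim1 and the cytokine gene Osm were taken as every probe set that the platform annotation gives to one of these 6 genes. The rule found 7 of the 12422 probe sets that are not array controls: 1 each for Cish, Socs1 and Socs2 and 2 each for Socs3 and Pim1. Osm was not analysed here, because the annotation used names no probe set for it. RNA abundance was measured on 12 Affymetrix arrays of dissociated thymus from mice of the C57Bl/6 strain. Of these arrays, 8 held leukemic cells of terminally ill mice carrying TEL-JAK2, in which part of the transcription factor TEL (Etv6) is joined to the kinase part of Jak2. The other 4 arrays were of wild type thymocytes, from animals 2 months old. The labels name neither the age of the leukemic mice nor the promoter of the fusion, and do not mention a sort.

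JAK kinases sit on cytokine receptors and phosphorylate STAT factors, which enter the nucleus and switch on target genes. Among the targets of STAT5 are genes whose products turn the pathway down: the CIS and SOCS proteins bind phosphorylated receptors or JAK kinases through an SH2 domain, and recruit a ubiquitin ligase through a C-terminal SOCS box. Pim1 is another STAT5 target, a kinase that promotes survival and growth and is active as soon as it is made. TEL-JAK2 is a JAK2 kinase that the TEL part holds in dimers, so that it signals without a cytokine.

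The promoters of the members are shown because STAT5 acts by binding DNA, at the element TTCNNNGAA, which reads the same on both strands. RefSeq promoters of the build GRCm38.p6, 250 bases before to 50 bases after a transcript start, were available for Cish, Socs1, Socs3 and Pim1. The Cish window held 2 matches, which start at bases 1 and 12 of the transcript model. The Socs3 window held 1, which starts at base -154, counted from the transcript start. The Socs1 window and both Pim1 windows held none. Of 32851 promoters of this length, 8.30% held at least 1 match and 0.457% held 2 or more. For Socs1 the stretch with the core of an interferon element (GAAA, any 2 bases, then GAAA again) is shown instead. Its window held 2 matches, which overlap by 4 bases, against at least 1 on either strand in 3.44% of all promoters, and the windows of Cish, Socs3 and Pim1 held none. Capitals mark the matches, and each stretch is written along the strand of its gene.
Cish, chr9:107296654-107296683, plus strand: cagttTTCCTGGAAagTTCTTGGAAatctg
Socs3, chr11:117969487-117969546, minus strand: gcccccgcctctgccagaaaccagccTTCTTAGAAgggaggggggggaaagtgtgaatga
Socs1, chr16:10785582-10785641, minus strand: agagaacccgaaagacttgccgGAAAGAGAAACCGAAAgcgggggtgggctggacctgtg
A match describes these letters only, and no binding was measured.

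Values are log2 intensities. After the submitters' RMA processing the arrays were alike in brightness, with median intensities from 66.48 to 70.18. Pairs of arrays correlated at 0.955 or more over probe sets. Values from before this processing were not examined, so the like medians do not describe the raw arrays. The level of non-mouse control probe sets, taken as their 95th percentile, lay between 5.20 and 5.59 on the 12 arrays, and a group mean below it is called near the control level. Of the leukemias, 4 carry a title number of 4 digits (leukemias 2 to 5) and 4 another title (leukemias 1 and 6 to 8), as do 3 and 1 of the thymocyte arrays. Title kind separated the leukemias without overlap for 17.2% of all probe sets, so it is given beside the results. Nothing beyond the titles says that the arrays are separate animals, so the p-values rest on a spread between samples that may be technical. Of 11 measured T-cell and thymocyte markers all had a mean above the control level, 4 fell (Cd247, Cd4, Ptcra and Rag2) and 7 did not pass the test, and their summed intensity was 9761 to 22206 in leukemias and 22717 to 23607 in thymocyte arrays. In a cell suspension, fewer cells of a type and less RNA per cell cannot be told apart.

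The leukemia samples held more Cish, Socs2, Socs3 and Pim1 RNA than the wild type thymocyte samples, and Socs1 did not pass the test. With limma and Benjamini-Hochberg adjustment over all 12422 probe sets, at an adjusted p under 0.05, 6 of the 7 probe sets rose and none fell. Among all probe sets 4.65% rose, 9.88% fell and 14.5% changed either way. The same 6 separated all 8 leukemias from all 4 thymocyte arrays, where 10.7% of all probe sets separated the groups in either direction and 3.84% with the leukemias higher. The increase ran from 1.58-fold on the dimmer Pim1 probe set to at least 9.88-fold for Socs2, against a median log2 difference of 0.0072 over all probe sets.

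**Figure D1:**
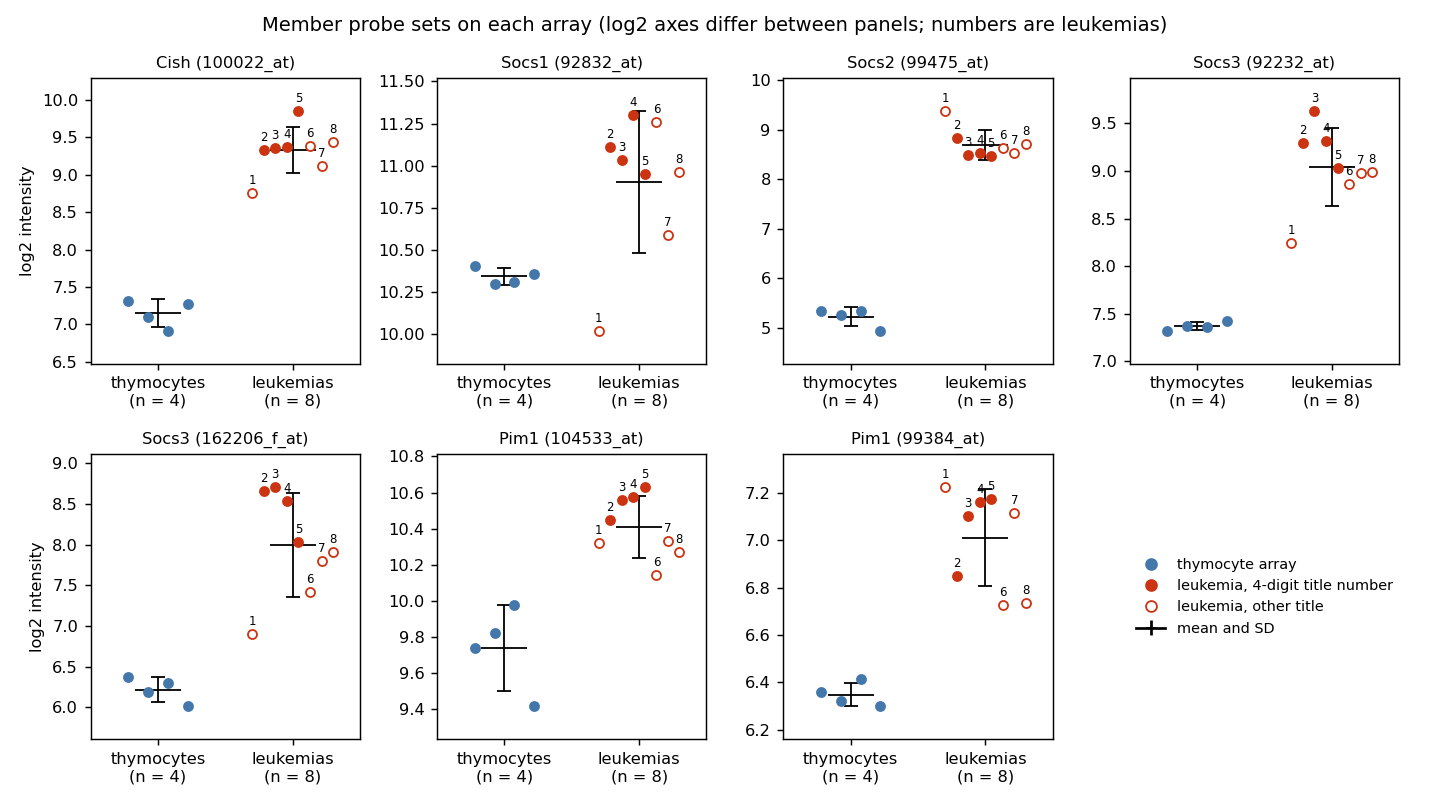
Log2 intensity of each member probe set on each array (points, with leukemias numbered), with the mean and SD of each group. Axes differ between panels. In 6 panels every leukemia lies above every thymocyte array, and in the Socs1 panel leukemia 1, at 10.02, lies below all 4 thymocyte arrays.

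Socs2, which binds the growth hormone receptor among others, had the largest difference. Its values were 9.37, 8.83, 8.48, 8.52, 8.47, 8.63, 8.53 and 8.71 in leukemias 1 to 8, and 5.34, 5.26, 5.33 and 4.93 in thymocyte arrays 1 to 4. All leukemias were high and close to each other apart from leukemia 1, which was higher still, and the groups lay 3.13 apart at their nearest. The thymocyte mean of 5.22 ± 0.19 (SD, n = 4) was near the control level and the leukemia mean was 8.69 ± 0.30 (SD, n = 8). The measured log2 difference was 3.48 (SE 0.15, limma adjusted p = 1.5e-08), and as the thymocyte values are near background the fold is given only as a lower bound, at least 9.88-fold.

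Cish, the first member of the family to be described and an early STAT5 target, followed. Cish stood at 8.76, 9.34, 9.36, 9.38, 9.85, 9.38, 9.12 and 9.43 in leukemias 1 to 8 and at 7.32, 7.10, 6.91 and 7.27 in thymocyte arrays 1 to 4. Leukemia 1 was the lowest leukemia and leukemia 5 the highest, and the nearest values of the groups were 1.44 apart. The thymocyte mean was 7.15 ± 0.19 (SD, n = 4) and the leukemia mean 9.33 ± 0.31 (SD, n = 8). Cish rose 4.52-fold, a log2 difference of 2.18 (SE 0.15, limma adjusted p = 9.7e-07). Among all probe sets it ranked 23rd by absolute moderated statistic, in either direction, and 29th by size of increase.

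Socs3, which binds gp130 and other receptors and inhibits the attached JAK kinase, was read by 2 probe sets. On the brighter one (92232_at) the leukemias stood at 8.25, 9.30, 9.63, 9.32, 9.04, 8.86, 8.97 and 8.99, and the thymocyte arrays at 7.32, 7.37, 7.36 and 7.43. Leukemia 1 was again the lowest, 0.82 above the highest thymocyte array, and leukemia 3 was the highest. Socs3 rose 3.19-fold there, from 7.37 ± 0.04 (SD, n = 4) to 9.04 ± 0.41 (SD, n = 8), a log2 difference of 1.67 (SE 0.19, limma adjusted p = 5.6e-05). The other probe set (162206_f_at), whose suffix marks possible cross-hybridization, read 6.90 to 8.71 in leukemias and 6.01 to 6.37 in thymocyte arrays, a log2 difference of 1.78 (SE 0.29, limma adjusted p = 0.00096). The lowest leukemia was leukemia 1 and the highest leukemia 3 on both. On both probe sets every leukemia with a title number of 4 digits lay above every other leukemia, at 9.04 or more against 8.99 or less on the brighter one.

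Socs1, the strongest inhibitor of interferon-gamma signalling in the family and active at many thymic cytokine receptors, was already bright in thymocytes. Its values were 10.02, 11.11, 11.04, 11.30, 10.95, 11.26, 10.59 and 10.96 in leukemias 1 to 8 and 10.40, 10.30, 10.31 and 10.36 in thymocyte arrays 1 to 4. In 7 of 8 leukemias Socs1 lay above all thymocyte arrays, and in leukemia 1 below all of them, so the groups overlapped. The spread was 0.42 (SD, n = 8) in leukemias and 0.05 (SD, n = 4) in thymocytes. The log2 difference of 0.56 (SE 0.19, 95% interval 0.15 to 0.97) did not pass the test (limma adjusted p = 0.070). The exact permutation test over arrays gave an unadjusted two-sided p of 0.0404, against 0.00202, the smallest it can give, for each of the 6 other probe sets. Without leukemia 1 the Socs1 difference was 0.69 and passed (limma adjusted p = 0.0016), and with title kind as a block it was 0.63 and also passed (limma adjusted p = 0.035).

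Pim1 rose by a smaller amount on both of its probe sets. On the brighter one (104533_at) the leukemias stood at 10.32, 10.45, 10.56, 10.57, 10.63, 10.14, 10.33 and 10.27, and the thymocyte arrays at 9.73, 9.82, 9.98 and 9.41. The lowest leukemia, number 6, lay 0.17 above the highest thymocyte array, number 3, and thymocyte array 4 was the lowest of its group. Pim1 rose 1.59-fold there, a log2 difference of 0.67 (SE 0.11, limma adjusted p = 0.0012). On the dimmer one (99384_at) it was 6.73 to 7.22 in leukemias and 6.30 to 6.41 in thymocyte arrays, a log2 difference of 0.66 (SE 0.10, limma adjusted p = 0.00075). The probe sets gave nearly the same difference but ordered the leukemias differently. Leukemia 1 was the highest on the dimmer and sixth from the top on the brighter, and on the brighter alone did the 4-digit leukemias all lie above the others.

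Leukemia 1 was the lowest leukemia on 4 of the 7 probe sets (Cish, Socs1 and both of Socs3) and the highest for Socs2. Relative to the mean of the leukemias it lay 0.67 higher for Socs2, and its deviations were -0.57 for Cish, -0.88 for Socs1 and -0.79 and -1.10 for Socs3. Leukemia 1 also had the lowest score of T-cell and thymocyte markers (-1.88, where the other leukemias had -1.36 to -0.40) and the highest score of NK cell markers (0.56, where the others had -0.31 to 0.10), each score being the mean log2 difference of the list from the thymocyte mean. All 5 measured NK cell markers had a mean over the 12 arrays below the control level, and in leukemia 1 the transcription factor gene Eomes (5.58) lay just above the level of that array (5.54). The part of these differences in the values of leukemia 1 was not tested. Without leukemia 1 the differences were 3.38 for Socs2, 2.26 for Cish and 1.79 for Socs3 (92232_at).

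**Figure D2:**
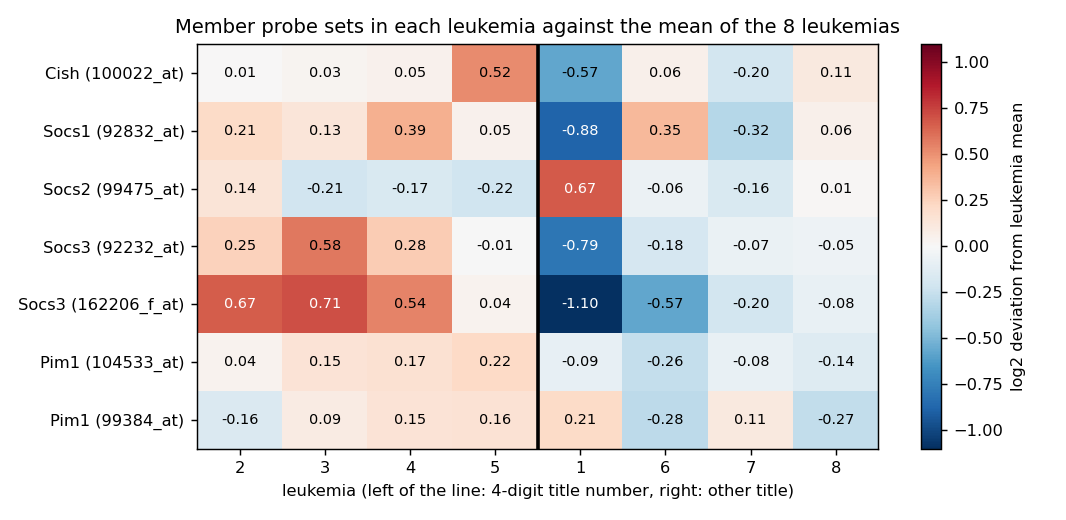
Deviation of each leukemia from the mean of the 8 leukemias (log2, colour and printed value) for each member probe set, with 4-digit titles to the left of the line. Leukemia 1 is lowest for Cish (-0.57), Socs1 (-0.88) and Socs3 (-0.79 and -1.10) and highest for Socs2 (0.67).

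Across the 8 leukemias no pair of member genes went together after adjustment over the 10 pairs, each gene being taken by its brighter probe set (exact permutation tests, 0 pairs by either coefficient, and 1 by Pearson's r and 0 by Spearman's rho at an unadjusted p under 0.05). That pair was Socs1 and Socs3, with r = 0.751 (exact p = 0.0473, adjusted 0.163) and rho = 0.524 (exact p = 0.197, adjusted 0.393). Without leukemias 1 and 7, the farthest from the Socs1 median, r was -0.01, so the relation rests on them. Socs2 ran against Cish (r = -0.750, exact p = 0.0612, adjusted 0.163; rho = -0.524, exact p = 0.197, adjusted 0.393) and against Socs3 (r = -0.759, exact p = 0.0505, adjusted 0.163; rho = -0.571, exact p = 0.151, adjusted 0.393). Without leukemia 1 these were -0.24 and -0.15. Without the 2 leukemias farthest from the median of the first gene, r was 0.293 for Cish and Socs2 (without 1 and 5) and -0.541 for Socs2 and Socs3 (without 1 and 2). The strongest rank correlations were of Pim1, with Socs3 (rho = 0.714, exact p = 0.0576, adjusted 0.347; r = 0.566, exact p = 0.138, adjusted 0.210) and with Socs2 (rho = -0.690, exact p = 0.0694, adjusted 0.347; r = -0.380, exact p = 0.388, adjusted 0.432). Without the 2 leukemias farthest from the Socs3 median (1 and 3), r was 0.677 for Socs3 and Pim1. Without the 2 farthest from the Socs2 median (1 and 2), r was -0.805 for Socs2 and Pim1. With each gene centred on the mean of its title kind, and leukemias permuted within kinds, 0 of the 10 pairs passed by either coefficient, adjusted or at an unadjusted p under 0.05. Socs3 and Pim1, which both separated the kinds, then had r = -0.29 (exact p = 0.53, adjusted 0.742), Socs2 and Pim1 -0.02 (exact p = 0.964, adjusted 0.964), and Socs1 and Socs3 0.650 (exact p = 0.188, adjusted 0.375). For Socs2 the centred r was -0.688 with Cish (exact p = 0.149, adjusted 0.375) and -0.735 with Socs3 (exact p = 0.125, adjusted 0.375).

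The member differences were also measured within each title kind, and the difference between kinds was not tested. Within the 4-digit arrays (4 leukemias, 3 thymocyte arrays) the log2 differences were 3.27 for Socs2, 2.37 for Cish, 1.97 and 2.20 for Socs3, 0.76 for Socs1, and 0.71 on each Pim1 probe set, and all 7 passed. Within the others (4 leukemias, 1 thymocyte array, whose spread has to be taken from the leukemias) they were 3.87 for Socs2, 1.90 for Cish, 1.34 and 1.50 for Socs3, 0.35 for Socs1, and 0.85 and 0.65 for Pim1, and only Socs2 passed (limma adjusted p = 0.032). In this smaller set 13 probe sets passed in all. The leukemia mean of every member probe set was the higher within both kinds. Within the leukemias, 3 of 7 member probe sets (both of Socs3 and the brighter of Pim1) did not overlap between title kinds, all higher with the 4-digit number, where 8.21% of all probe sets did so in that direction. Under title kind as a block all 7 passed.

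**Figure D3:**
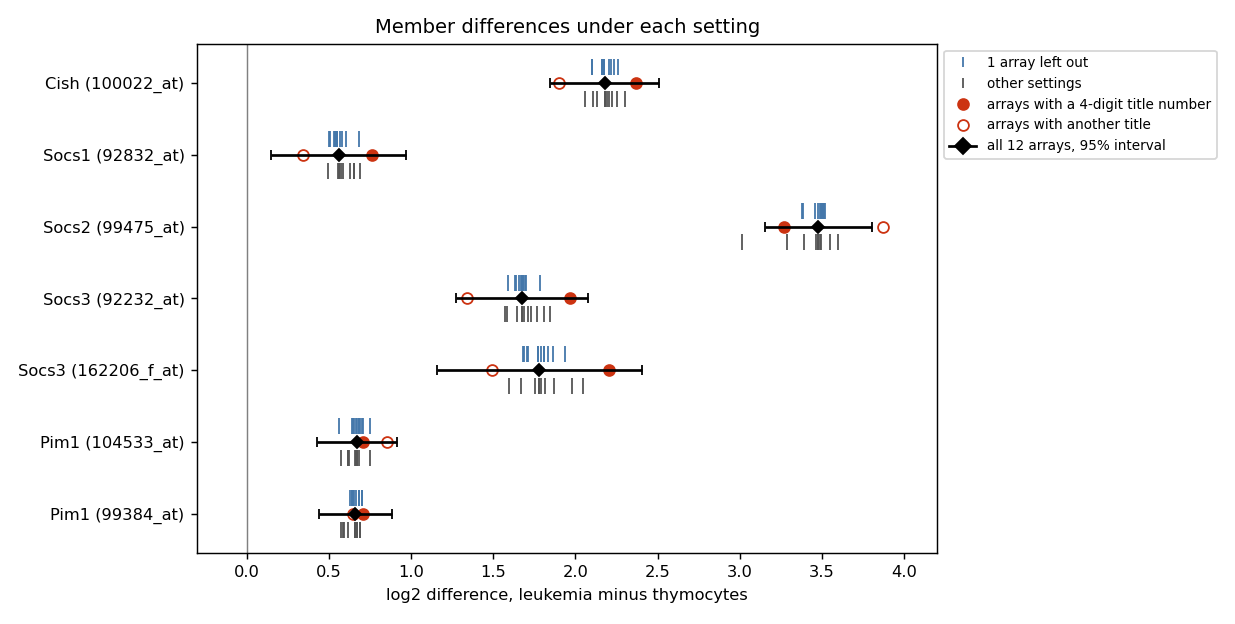
Log2 difference between leukemia and thymocytes for each member probe set: over all 12 arrays with its 95% interval (diamond), with 1 array left out, under the other settings, and within each title kind (circles). Socs2 keeps the largest difference, from 3.01 to 3.87, and the Socs1 interval, 0.15 to 0.97, lies nearest 0.

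Markers of other cells that a thymus suspension can hold were read on the same arrays. Of 16 macrophage markers 0 passed limma's adjusted threshold and 4 had an unadjusted p under 0.05, and their summed intensity was 1585 to 8079 in leukemias and 1792 to 2556 in thymocyte arrays, with the highest marker scores in leukemias 3, 5 and 7. Of the 16, Adgre1, Itgam, Marco and Mrc1 had a mean over the 12 arrays below the control level and the other 12 did not. C1qb, a complement gene of macrophages, read 8.62, 9.17 and 9.39 in leukemias 3, 5 and 7, 6.08 to 7.15 in the other leukemias and 6.21 to 7.05 in thymocyte arrays. Without leukemias 3, 5 and 7 the differences were 3.60 for Socs2, 2.11 for Cish, 1.57 and 1.67 for Socs3, 0.61 and 0.59 for Pim1, and 0.59 for Socs1, which again did not pass (limma adjusted p = 0.139). Adjusted for the macrophage score, they were 3.55 for Socs2, 2.13 for Cish, 1.64 and 1.76 for Socs3, 0.63 and 0.59 for Pim1 and 0.65 for Socs1 (limma adjusted p = 0.063). Of 12 neutrophil markers 4 fell, among them Camp (log2 difference -0.49) and S100a8 (-1.66), and none rose. By limma 0 markers passed among 7 of B cells, 6 of dendritic cells, 4 of erythroid cells, 6 of fibroblasts and 7 of endothelium, and 1, 1, 0, 0 and 1 of them had an unadjusted p under 0.05. Leukemias 3, 5 and 7 also had the highest scores of B cell markers (0.37, 0.60 and 0.79, others -0.15 to 0.25). The same held for dendritic cell markers (0.24, 0.26 and 0.33, others -0.18 to 0.18) and neutrophil markers (-0.27, -0.02 and -0.02, others -0.56 to -0.33). These leukemias thus did not stand out for macrophage markers alone. Of 5 NK cell markers only Klra3 passed, lower and near the control level in both groups. Of 7 thymic epithelium markers 1 rose, near the control level in both groups, and 2 fell. These were Ccl25, a thymic chemokine (at least 2.03-fold lower), and the keratin gene Krt18, near the control level in both groups. Krt18 was not past the threshold without thymocyte array 1 or without leukemias 3, 5 and 7.

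The rest of the pathway was followed in 9 lists, with each gene taken by its brightest probe set. Of the 8251 genes 5.15% rose, 11.4% fell and 16.6% changed, with a median log2 difference of 0.0037. In the SOCS family 3 of 5 measured genes rose and 2 did not pass, with a median of 1.67. The fifth gene, Socs5, which restrains receptors of the EGF and IL-4 type, read 6.92 to 7.24 in leukemias and 6.87 to 7.08 in thymocyte arrays, a difference of 0.04 (SE 0.08, limma adjusted p = 0.815), and -0.0036 without thymocyte array 1. Of the list of SOCS box ligase subunits 4 genes were measured, and Cul5 and Rbx1 were not. Only Cul2 passed, and fell by 0.33 on the log2 scale (median of the list -0.22). Without thymocyte array 1 or 2 Cul2 was no longer past the threshold (-0.29 and -0.30).

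Among 11 other JAK-STAT inhibitors 2 rose, 1 fell and 8 did not pass, with a median of 0.01. The tyrosine phosphatase Ptpn1, which dephosphorylates JAK2 and TYK2, rose 4.14-fold. Ptpn1 stood at 10.77 to 11.98 in leukemias and 8.94 to 9.46 in thymocyte arrays, without overlap (log2 difference 2.05, SE 0.20, limma adjusted p = 1.5e-05). Its relative Ptpn2, a phosphatase for JAK1, JAK3 and STAT factors, rose by 0.55, and the STAT inhibitor gene Pias1 fell by 0.38 on the log2 scale. Neither the phosphatase gene Ptpn6 nor the receptor-type Ptprc passed.

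Of the 3 PIM kinases only Pim1 rose, with a median of 0.67. Pim2 was far more variable: 8.98, 6.81, 7.74, 7.05, 8.12, 6.70, 8.78 and 7.69 in leukemias 1 to 8 against 6.92 to 7.09 in thymocyte arrays. It was highest in leukemias 1, 7 and 5, lay within the thymocyte range in leukemia 4 and below it in 2 and 6. Its log2 difference of 0.72 (SE 0.38, limma adjusted p = 0.268) was as large as that of Pim1 and did not pass. Pim3 read 7.29 to 7.64 in leukemias and 7.48 to 7.69 in thymocyte arrays, a difference of -0.13 (limma adjusted p = 0.310). Of 11 PIM substrates and partners 1 rose and 3 fell, with a median of -0.04. The cell-cycle inhibitor Cdkn1a rose by 0.32, and the chemokine receptor gene Cxcr4 (-1.31) and the cell-cycle phosphatase genes Cdc25a (-0.39) and Cdc25c (-0.40) fell. Cdc25c, at an adjusted p of 0.049 by limma, did not pass under quantile normalization (adjusted p = 0.090) or without any 1 array other than leukemia 1 or 6. Cdc25a did not pass without thymocyte array 1, 2 or 4, and Cdkn1a did not without thymocyte array 1, 2 or 3. Neither passed without leukemias 3, 5 and 7, and nor did Cdc25c.

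Among 9 measured JAK kinases and STAT factors 3 rose, 1 fell and 5 did not pass, with a median of 0.04. The kinase gene Jak3, whose probe set has a suffix for shared sequence, rose by 1.05 (SE 0.21), Stat4 by 0.75 (SE 0.17) and Tyk2 by 0.29 (SE 0.07). Tyk2 did not pass without thymocyte array 1 (0.25) or 2 (0.26), or without leukemias 3, 5 and 7 (0.28, limma adjusted p = 0.057). By the exact permutation test Stat4 did not pass (adjusted p = 0.064). Stat5b, one of the pair of STAT5 genes, fell, from 8.38 to 8.63 in thymocyte arrays to 7.48 to 8.13 in leukemias (log2 difference -0.67, SE 0.12, limma adjusted p = 0.0023). Stat5a differed by -0.25 (limma adjusted p = 0.151), Jak2 by -0.40 (0.113), Stat6 by -0.16 (0.479), Stat3 by 0.12 (0.405) and Jak1 by 0.04 (0.873, and -0.02 without leukemia 1), and none of these passed.

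The other STAT5 targets moved in both directions: of 17 measured genes 7 rose, 2 fell and 8 did not pass, with a median of 0.32. The survival gene Bcl2 rose by 2.26 (SE 0.20) and the interleukin-2 receptor chain Il2ra by 2.51 (SE 0.26), from near the control level in thymocytes, at least 3.14-fold. The repressor gene Bcl6, which STAT5 is known to repress, fell by 3.22 (SE 0.21), and the cyclin gene Ccnd3 fell by 1.71 (SE 0.08) on the log2 scale. In the leukemias without a 4-digit title number Bcl6 lay below the control level of the array, so the size of its fall is uncertain. Myc, Mcl1 and Bcl2l1 did not pass. Of 12 cytokine receptors that these inhibitors restrain 3 rose and none fell, with a median of 0.04: Il2ra, Il2rb (1.78, SE 0.47) and the interferon-gamma receptor chain Ifngr1 (1.30, SE 0.19). Il2rb did not pass when adjusted for the macrophage score (1.33, limma adjusted p = 0.071), or without thymocyte array 1, 2 or 3 (1.76 to 1.79). Nor did it pass without leukemias 3, 5 and 7 (1.47, limma adjusted p = 0.083) or by the exact permutation test (adjusted p = 0.074).

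Of 8 measured genes for OSM and IL-6 family cytokines and their receptors 1 rose, 1 fell and 6 did not pass, with a median of 0.05. Il6st encodes gp130, the receptor chain that OSM and IL-6 share and that Socs3 binds. It stood at 5.84 to 6.32 in leukemias and 7.11 to 7.78 in thymocyte arrays, and fell by 1.48 (SE 0.13, limma adjusted p = 8.1e-06) on the log2 scale. Lifr rose by 0.40 (limma adjusted p = 0.043), but the mean of its probe sets differed by 0.11 (adjusted p = 0.448), and it did not pass without any 1 array other than leukemia 7. Il6, Il11 and the OSM receptor gene Osmr were near the control level in both groups.

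**Figure D4:**
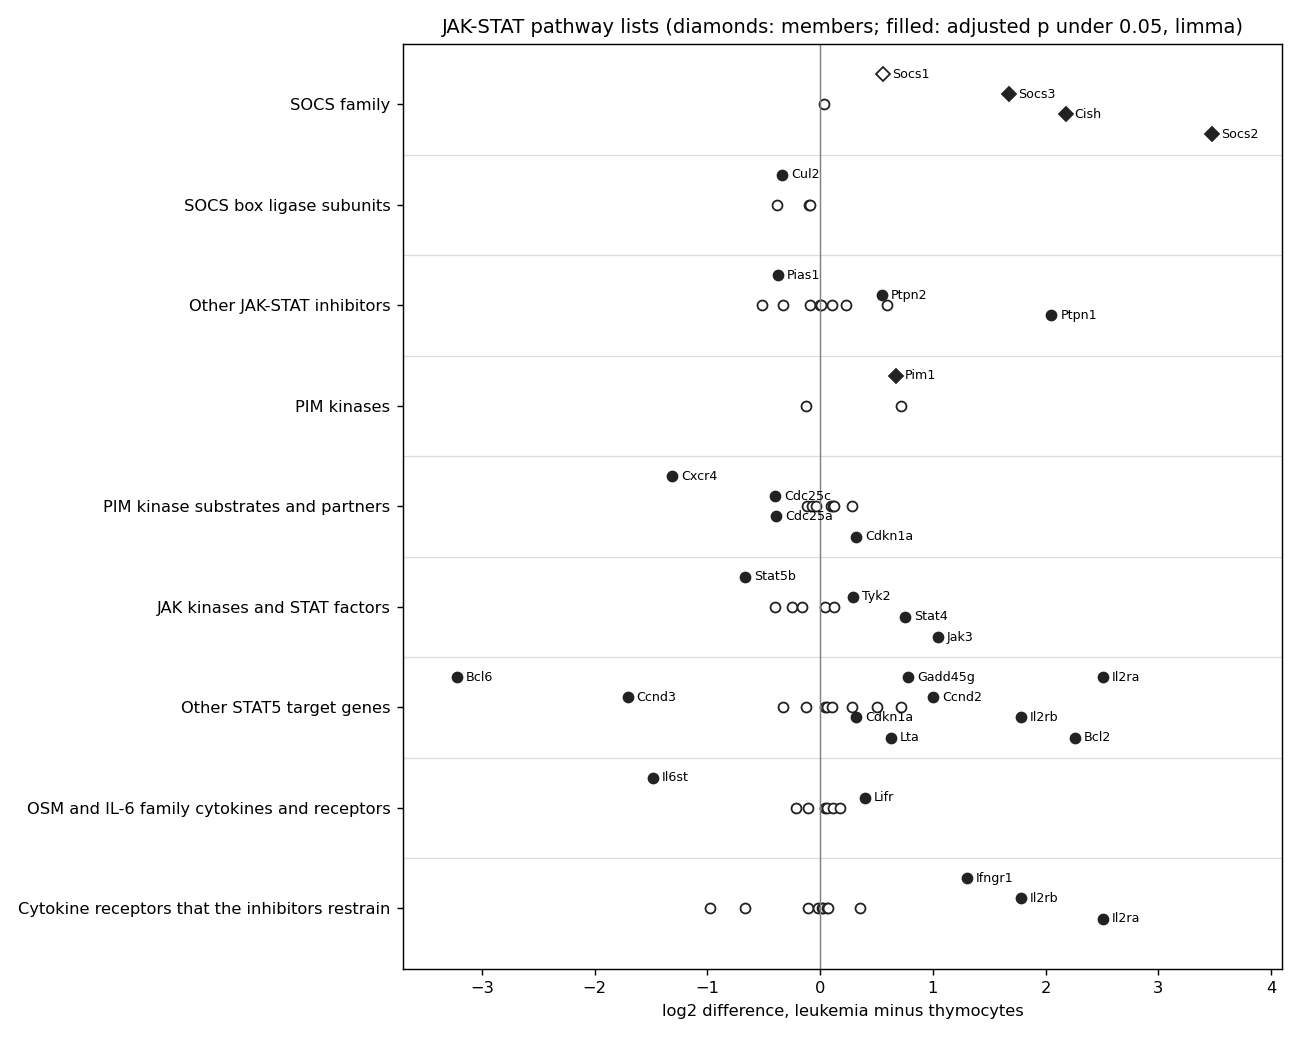
Log2 difference between leukemia and thymocytes for each measured gene of the 9 pathway lists (rows), by its brightest probe set. Diamonds are members, filled points passed limma at an adjusted p under 0.05 and carry their names; Socs2 (3.48) is farthest to the right and Bcl6 (-3.22) farthest to the left.

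The genes whose pattern over the 8 leukemias was most like that of a member were sought among 5905 genes above the control level. Since the arrays share their title kinds and few arrays were compared with many genes, high values of r are a description only. The closest to Pim1 were Spg21 (r = 0.992), Sec11a (0.983) and Mat2b (0.977). For Cish they were Xrcc6 (0.942), Mef2d (0.938) and Dusp1 (0.926), and for Socs2 Llgl2 (0.935), Brca2 (0.913) and Lrrfip2 (0.909). For Socs3 they were Tox4 (0.924), the chemokine receptor gene Ccr9 (0.923) and Bcl2l13 (0.920). Of these 12 genes Ccr9 differed most between the groups, with a log2 difference of -2.86, in the direction opposite to Socs3.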

How the data were processed

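The authors deposited 1 intensity per probe set and array on a linear scale, summarised with RMA per the submitters' processing notes, which name no version. The values were converted to log2 with no pseudocount, and the 66 array controls were left out. Groups came from the genotype label. Probe sets were named through the platform annotation, with symbols updated through RefSeq (GRCm38.p6), and none from a probe set with several genes. Besides Jak3 and Socs3, the probe sets used for Cdc25c, Klra3, Ptpn6 and Spg21 had a suffix for possible shared sequence (_s_at or _f_at). Those used for Bcl2, Ptprc, Stat5a and Tox4 had the suffix _g_at or _i_at instead of the plain _at. The groups were compared with limma (version 3.58.1, under R version 4.3.3) by two-sided moderated tests without covariates, tested on simulated data first. The exact permutation test ran over all 495 assignments of arrays, and its two-sided p is the share with an absolute difference at least as large. The control level came from 19 bacterial and yeast probe sets. A fold against a group near this level ("at least") uses, per array, the higher of the level and the measured value. The number of arrays limits the precision.

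Members and lists were chosen with earlier results of these data known. Genes named in the text are the members, the 3 genes most like each member that passed, up to 4 genes with the largest moderated statistic among those that passed in each pathway list, all genes of the SOCS, PIM and JAK-STAT lists, and up to 2 of the brightest that passed in each marker list. Others were named after their values were seen. Another list of target genes was tested and is not reported here. Alternatives covered normalization, filters, variance models, title kind, single arrays, the macrophage score and probe set choice. Leaving out leukemias 3, 5 and 7, or leukemia 1 with thymocyte array 4, was chosen after seeing the data.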

Additional observations from a re-analysis of the deposited data

Results flagged for a closer look

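Socs2 in leukemia 1, at 9.37, stood far from the other 7 leukemias, the nearest of which was at 8.83. Lifr (104658_at), the receptor gene for leukemia inhibitory factor, was at 5.42 in leukemia 7, and its nearest neighbour among the leukemias was at 5.87. These were 2 of 92 groups of values examined for an array far from the rest, over 46 probe sets, where chance alone marks about 1 in 20. Among the members, 1 of 14 such groups was marked.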

How the results depend on the processing

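Each member difference was positive under every alternative run for it and with each array left out (the settings with 1 value per gene give 5 values, not 7). Within the arrays without a 4-digit title number, where 1 thymocyte array is left, 13 probe sets and 1 member (Socs2) passed. The others did not: Cish (1.90), Socs3 (1.34 and 1.50) and Pim1 (0.85 and 0.65). Socs1 passed with array weights (0.66), with title kind as a block (0.63), within the 4-digit arrays (0.76), and without leukemia 1 and thymocyte array 4 (0.69). With 1 array left out it ranged from 0.50 to 0.69, and passed without leukemia 1 only. The members passing numbered 6 to 7 with 1 array left out. The 1805 probe sets that changed became 3400 with array weights, 1008 at an adjusted p under 0.01, and 1162 to 2044 with 1 array left out, the lowest without thymocyte array 1 (1162) and thymocyte array 2 (1185). No other alternative moved this count by over 1.5 times. Jak1, which did not pass, was -0.016 without leukemia 1, -0.00070 without thymocyte array 4 and -0.061 without both, and Socs5 was -0.0036 without thymocyte array 1; with 1 array left out they ranged from -0.016 to 0.105 and from -0.0036 to 0.066. Among the named list genes, Stat5a (-0.24) and Jak2 (-0.37) passed with array weights. The cause of these changes was not tested. No pair of members correlated past the threshold with any leukemia left out, with the mean of the probe sets or centred on title kind, a setting chosen after seeing the data. No paired analysis was possible because the titles of the groups share no replicate number. Socs2 in thymocytes was near the control level, which limits its fold to a lower bound.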

Other observations

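Genes of interleukin-2 type signalling also varied between leukemias, and are described after their values were seen. Il2rb read 9.83, 7.11, 8.52, 6.97, 8.04, 7.58, 9.43 and 7.64 in leukemias 1 to 8, and Jak3 read 9.36, 8.67, 9.23, 8.50, 8.86, 8.44, 9.74 and 8.85. Pim2, Il2rb and Jak3 each had their highest values in leukemias 1 and 7. Il2ra had another order, with its lowest leukemia value, 5.85, in leukemia 1 and 6.67 to 7.69 in the others. Bcl6 was at 5.78 to 5.92 in the 4-digit leukemias and at 4.98 to 5.16 in the others, against 8.40 to 8.83 in thymocyte arrays. The values in those other leukemias lay below the control level of their own arrays (5.20 to 5.59).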
